A study of Mus musculus with 12 samples.

Results

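Mouse chromosome 15 was examined as a block of genes, with each tumour array set against normal neural stem cells and against the other 18 autosomes. The members were chosen by a rule on position and level: a probe set (the array's group of probes for a transcript) had to carry exactly 1 gene symbol, its gene had to lie on chromosome 15, and its mean over the 12 arrays had to exceed the mean of the 12 array medians, 7.63 on the log2 scale. This left 476 probe sets of 439 genes, of 831 probe sets on chromosome 15 and 21780 probe sets with 1 symbol (19934 genes) in all. The same level rule left 11049 probe sets of 10030 genes on the other autosomes. The chromosome itself was selected on the tumour minus normal difference in these same arrays, so its size and the counts of calls from that comparison are a description and carry no test of the chromosome. Trmt12 (7.6262), Cacng2 and Col22a1 lay just below the level threshold, and Trmu (7.6304), Mfsd3 and Dab2 just above it.

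Expression arrays were run on 12 cell cultures, 1 array each. Of these, 9 were glioblastoma cultures, which the labels also call glioma stem cells, and 3 were normal neural stem cells (NSC) grown out of the subventricular zone of adult mice. The tumours had been started by injecting DF-1 chicken cells that make the RCAS-PDGFB-HA virus into the brain of adult mice, where only cells with the virus receptor tv-a can be infected. The receptor was driven by the Gfap promoter in G/tv-a mice (the mGC1_GFAP cultures), by the Nes promoter in N/tv-a mice (mGC2_NES) and by the Cnp promoter in C/tv-a mice (mGC3_CNP), with 3 cultures in each group. The NSC group held 1 culture of each line, named here by its line. All lines, those of the NSC included, were Arf-/-. All cultures grew without treatment in DMEM/F12 with B-27 and insulin, and attached culture on a coated dish is described for the tumour cells. The labels do not say whether the cultures of a group came from separate animals, so p-values measure the spread between cultures only.

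A change in the copy number of a chromosome moves the RNA of many of its genes the same way by a modest amount, and for that reason gene expression averaged over long runs of neighbouring genes is used to look for such changes in tumours. Genes also move one by one with cell identity, and chromosome 15 carries several genes of glial lineage and growth: Sox10, the transcription factor of oligodendrocyte lineage cells, Slc1a3, a glutamate transporter of astrocytes and radial glia, Myc, a transcription factor of cell growth, and Pdgfb, the ligand of PDGF receptors. DNA was not measured here, and expression values do not give copy number.

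Members run along the length of the chromosome, and 3 promoters are shown because their genes held the middle difference of the first window of members, of the lowest window and of the last. They are RefSeq sequences of build GRCm38.p6, from 250 bases before to 50 bases after the gene start, printed 5′ to 3′ on the gene's own strand with each CG in capitals. Prkaa1 (chr15:5143611-5143910, plus strand) encodes a catalytic subunit of the energy sensor AMPK, Cenpm (chr15:82244287-82244586, minus strand) a centromere protein, and Atp5g2 (chr15:102670998-102671297, minus strand) a membrane subunit of ATP synthase.
Prkaa1: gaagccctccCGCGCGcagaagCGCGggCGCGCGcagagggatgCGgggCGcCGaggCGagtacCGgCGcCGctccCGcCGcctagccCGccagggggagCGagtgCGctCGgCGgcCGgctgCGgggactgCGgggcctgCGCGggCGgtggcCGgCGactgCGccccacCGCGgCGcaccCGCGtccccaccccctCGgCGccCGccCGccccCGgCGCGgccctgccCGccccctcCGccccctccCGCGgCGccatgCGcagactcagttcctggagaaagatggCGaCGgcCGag
Cenpm: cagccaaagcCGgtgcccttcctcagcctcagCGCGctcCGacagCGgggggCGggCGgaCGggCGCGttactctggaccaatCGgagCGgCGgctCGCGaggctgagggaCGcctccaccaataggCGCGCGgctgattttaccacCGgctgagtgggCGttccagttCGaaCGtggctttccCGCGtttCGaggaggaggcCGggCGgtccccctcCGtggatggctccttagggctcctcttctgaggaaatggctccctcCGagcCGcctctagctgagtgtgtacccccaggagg
Atp5g2: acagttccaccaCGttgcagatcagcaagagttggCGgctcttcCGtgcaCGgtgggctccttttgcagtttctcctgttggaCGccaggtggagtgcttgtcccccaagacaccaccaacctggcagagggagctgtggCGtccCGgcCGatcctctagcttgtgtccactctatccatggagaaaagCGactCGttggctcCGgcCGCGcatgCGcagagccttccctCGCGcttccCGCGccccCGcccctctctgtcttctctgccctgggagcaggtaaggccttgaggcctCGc
These stretches hold 52, 31 and 20 CG in the order shown, beside a median of 22 over the 8222 promoters found for genes of the other autosomes above the level threshold, and of 7 over the 25748 autosomal promoters of the table. Only 249 of the 439 member genes had a promoter in the table, so a comparison of promoter composition over the members is void and none is given.

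Chromosome 15 genes read higher in every tumour culture than in NSC. The median level of the 476 members was 9.66 in the C/tv-a NSC, 9.61 in the N/tv-a NSC and 9.71 in the G/tv-a NSC. It was 10.03, 10.08 and 10.06 in the mGC1_GFAP cultures, 10.04, 10.06 and 10.04 in the mGC2_NES cultures and 9.91, 9.99 and 10.03 in the mGC3_CNP cultures. All 9 tumour values lay above all 3 NSC values. The median of the other autosomes stayed between 9.76 and 9.85 in the 12 cultures, with no such split.

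Each tumour array was then compared with the mean of the 3 NSC arrays, probe set by probe set, and the median difference of chromosome 15 was taken relative to that of the other autosomes (the relative median below, in log2 units). It was 0.30, 0.33 and 0.33 in mGC1_GFAP replicates 1, 2 and 3. In mGC2_NES replicates 1, 2 and 3 it was 0.30, 0.31 and 0.29. In mGC3_CNP it was 0.18 in replicate 1, the lowest of the tumour arrays, and 0.31 in both replicates 2 and 3. The mean over the tumour arrays was 0.30 ± 0.046 (SD, n = 9), and by group the mGC1_GFAP arrays averaged 0.32 ± 0.016, the mGC2_NES arrays 0.30 ± 0.010 and the mGC3_CNP arrays 0.27 ± 0.077 (SD, n = 3 each). The wide spread of mGC3_CNP came from replicate 1. Each NSC culture set against the mean of the other two gave 0.0025 for C/tv-a, 0.0040 for N/tv-a and -0.012 for G/tv-a. Every tumour array thus lay above every NSC array, and chromosome 15 had the highest relative median of the 19 autosomes in 9 of 9 tumour arrays. In bulk RNA, a change in the share of cells and a change in RNA per cell cannot be told apart.

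**Figure D1:**
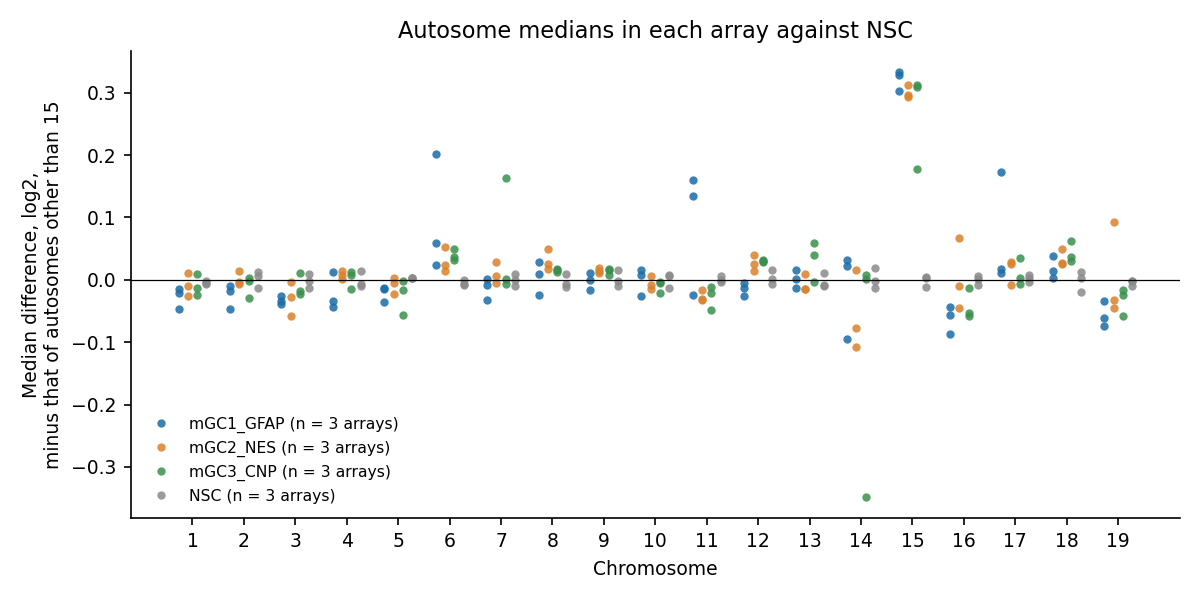
Median difference of each autosome from NSC, minus that of the autosomes other than 15 (log2, vertical axis), by chromosome, with 1 point per array: 3 mGC1_GFAP, 3 mGC2_NES and 3 mGC3_CNP arrays against the NSC mean, and each NSC array against the other two. The 9 tumour points of chromosome 15 lie between 0.18 and 0.33, and the NSC points of all autosomes lie between -0.020 and 0.019.

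The shift was carried by most members in each array. Between 69.7% and 82.1% of the members lay above the NSC mean in a tumour array, against 45.0% to 51.8% of the probe sets of the other autosomes in the same arrays. The range from the 25th to the 75th percentile of the member differences ran from 0.080 to 0.57 in mGC1_GFAP replicate 1 and from -0.067 to 0.48 in mGC3_CNP replicate 1. For the other autosomes the same ranges were -0.25 to 0.25 and -0.23 to 0.33. Of the members, 265 (55.7%) lay above the NSC mean in all 9 tumour arrays and 42 (8.82%) below it in all 9. On the other autosomes these shares were 26.3% and 28.5%.

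Shifts of other autosomes, taken by the median of the whole chromosome, were fewer and differed from culture to culture. Of the 162 relative medians of the other 18 autosomes in the 9 tumour arrays, 7 lay more than 0.1 from 0, in 4 arrays. In mGC1_GFAP replicate 1, chromosome 6 lay at 0.20, chromosome 17 at 0.17 and chromosome 11 at 0.14, with the same sign in all 12, 12 and 21 of their windows. Chromosome 11 lay at 0.16 in mGC1_GFAP replicate 3, where 13 of its 21 windows had that sign, from -0.15 to 0.39. In mGC3_CNP replicate 1, the array with the lowest value of chromosome 15, chromosome 7 lay at 0.16 and chromosome 14 at -0.35, the value farthest from 0 of any autosome in any array. Of their windows, 16 of 18 and 7 of 8 had the sign of the chromosome, from -0.053 to 0.47 and from -0.68 to 0.027. Chromosome 14 also lay at -0.11 in mGC2_NES replicate 1, with that sign in 5 of 8 windows (-0.39 to 0.12). None of these 5 chromosomes was past 0.1 in more than 2 arrays, whereas chromosome 15 was in 9. Of the other 18 autosomes, 2 also lay above 0 in all 9 tumour arrays, chromosome 6 (0.014 to 0.20) and chromosome 18 (0.0022 to 0.063). The median of a whole chromosome can miss a part of it. In mGC1_GFAP replicate 3, windows 14, 15 and 16 of the 16 on chromosome 4 differed from NSC by -0.64, -0.62 and -0.56.

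The moderated linear model of limma, fitted to all 21780 probe sets, called 273 members (57.4%) higher and 45 (9.45%) lower in the tumour cultures than in NSC at a Benjamini-Hochberg adjusted p under 0.05, and left 158 not called. Over all probe sets it called 17.6% higher and 19.2% lower, and among the probe sets of the other autosomes above the level threshold 25.3% higher and 27.8% lower. By single autosome, the share called higher ran from 18.8% (chromosome 14) to 31.4% (chromosome 6) outside chromosome 15, and the share called lower from 21.1% to 32.6%. The tumour and NSC arrays did not overlap for 209 members that were higher (43.9%) and for 31 that were lower (6.51%). Over all probe sets these shares were 13.0% and 14.3%, and on the other autosomes above the threshold 19.3% and 20.7%. The chromosome was chosen on this contrast, so nothing is read from these counts beyond their size. Of the members, 24 passed the level rule although the mean of their lower group was no higher than 7.42, the highest reading of 4 transcripts of sperm formation (Odf1, Prm2, Tnp1 and Tnp2) that served as a background. These had to differ between the groups to pass, and all 24 were called.

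**Figure D2:**
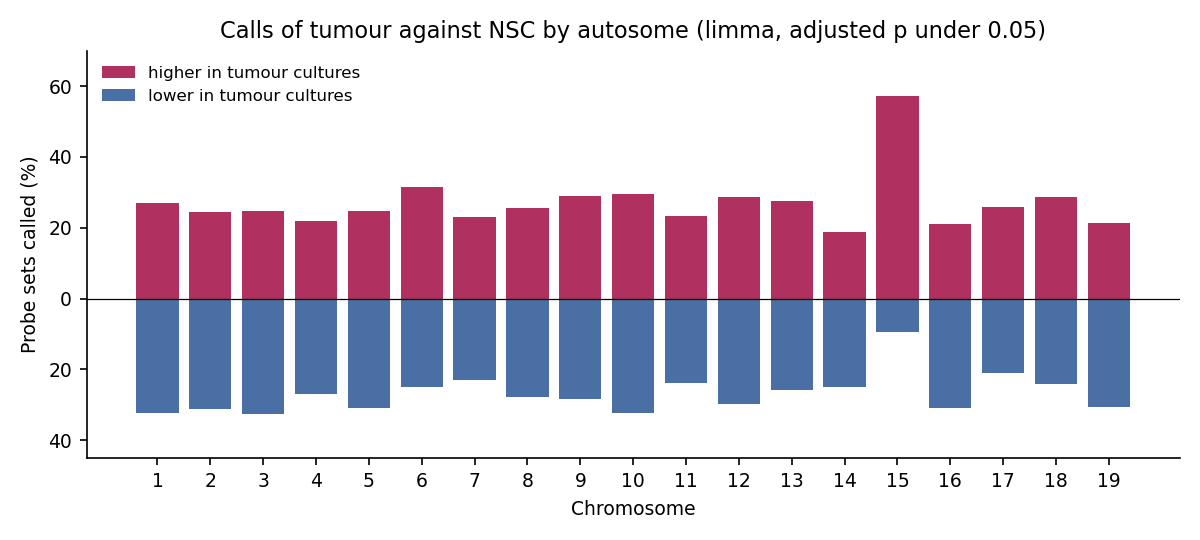
Share of the probe sets above the level threshold called higher (bars above 0) and lower (bars below 0) in the 9 tumour cultures than in the 3 NSC cultures by limma at an adjusted p under 0.05 (percent, vertical axis), for each autosome (horizontal axis). Chromosome 15 has 57.4% higher and 9.45% lower; on the other autosomes the higher share runs from 18.8% to 31.4%.

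Most of the differences were small. The median tumour minus NSC difference was 0.27 for the members and -0.022 for the other autosomes, which differ by 0.30, a ratio of 1.23 on the linear scale of RMA values. Of the members, 48 (10.1%) were called higher by 2-fold or more, and 15 (3.15%) lower. These counts were not taken on the other autosomes. There the difference was -1.01 at the 4th percentile, -0.86 at the 5th, 0.70 at the 90th, 1.04 at the 94th and 1.19 at the 95th. On chromosome 15 it was -0.79, -0.59, 1.02, 1.52 and 1.70 at the same percentiles. The displacement was of similar size over the middle of the distribution: the 10th percentile was displaced by 0.31, the 25th by 0.28, the median by 0.30, the 75th by 0.31 and the 90th by 0.31. It was 0.27 at the 5th percentile and 0.51 at the 95th, and it turned at the lowest end. There the 1st percentile was -2.47 on chromosome 15 and -2.19 on the other autosomes, and the 2nd was -1.75 and -1.59.

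**Figure D3:**
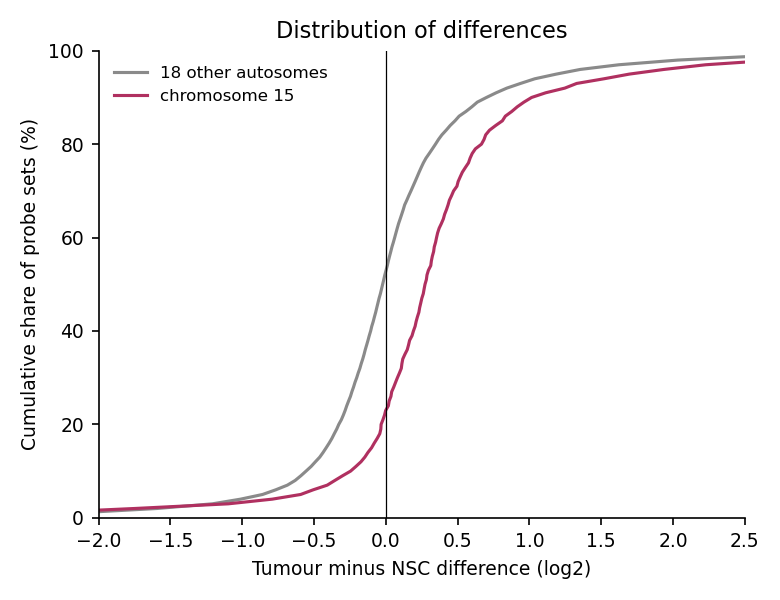
Cumulative share (percent, vertical axis) of the 476 chromosome 15 probe sets and of the 11049 probe sets of the other 18 autosomes by their tumour minus NSC difference (log2, horizontal axis, the mean of 9 arrays minus the mean of 3). The chromosome 15 curve runs to the right of the other by 0.31 at the 10th, 0.30 at the 50th and 0.31 at the 90th percentile. It runs to the left of the other at the 2nd percentile, and at the 1st, which is outside the plotted range.

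The displacement differed with the level of the probe sets. The probe sets were divided into 4 classes of equal size by level. The members' median exceeded that of the other autosomes by 0.084 in the lowest class (7.63 to 8.80, 115 members), by 0.35 in the second (111 members), by 0.42 in the third (99 members) and by 0.33 in the highest (10.77 to 14.34, 151 members). The share of members called higher was 36.5%, 56.8%, 70.7% and 64.9% in that order, beside 26.1%, 27.2%, 26.3% and 21.5% on the other autosomes. The 355 chromosome 15 probe sets at or below the threshold had a median difference of 0.038, against 0.016 on the other autosomes, and limma called 10.1% of them higher and 9.01% lower. With no level rule, the median over all 831 probe sets exceeded that of the other autosomes by 0.10.

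The members were put in gene order and divided into 10 windows of 47 or 48 probe sets, each taken as the difference from the NSC mean. All 90 medians of a window in a tumour array were above 0, from 0.066 to 0.44, whereas the NSC arrays gave -0.059 to 0.051. By the difference averaged over the tumour groups, the highest window was the eighth, from Alg12 to Slc48a1, at 0.37. Its range over the arrays was 0.25 to 0.39, and it was not the highest within any single group. The last window, from Letmd1 to Ppp1r1a, lay at 0.35 (0.30 to 0.42), the third, from Csmd3 to Phf20l1, at 0.32 (0.17 to 0.43) and the first, from Ghr to Dap, at 0.32 (0.13 to 0.44). The lowest was the seventh, from Pmm1 to Brd1, at 0.18 (0.066 to 0.26), next to the fifth, from Mroh1 to Galr3, at 0.19 (0.066 to 0.25). Windows 2, 4, 6 and 9 lay at 0.22, 0.25, 0.27 and 0.28. The ranges over arrays of the highest and the lowest window overlapped only between 0.25 and 0.26, and those of windows next to each other in this order overlapped widely.

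**Figure D4:**
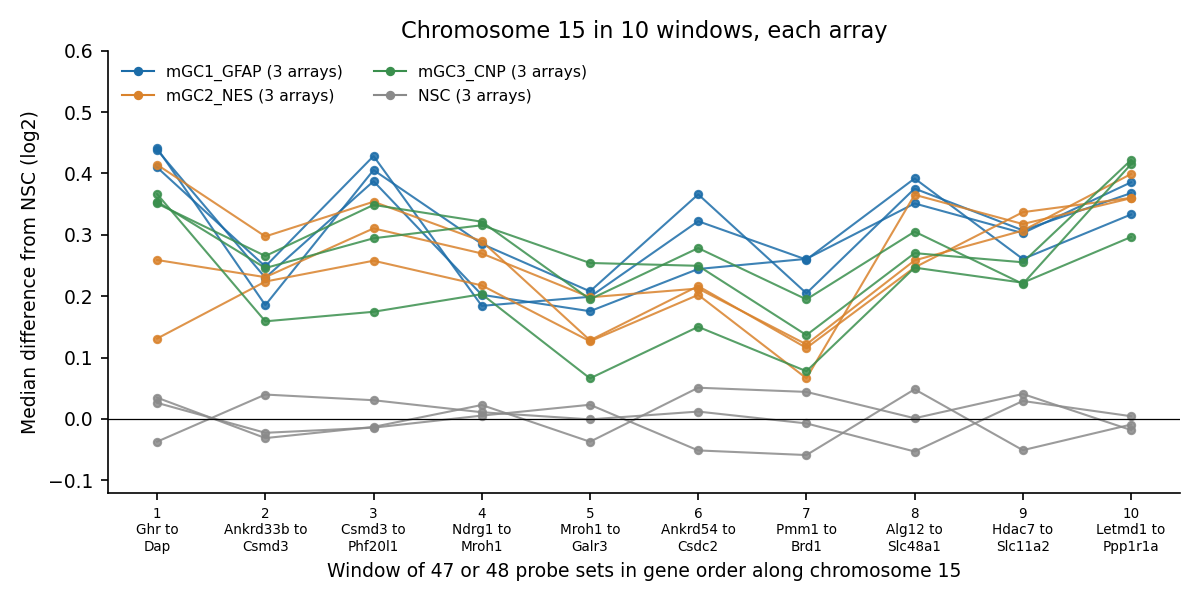
Median difference from NSC (log2, vertical axis) of each of 10 windows of 47 or 48 probe sets in gene order along chromosome 15 (horizontal axis, with the first and last named gene), 1 line per array for 9 tumour arrays against the NSC mean and 3 NSC arrays against the other two. The tumour lines stay between 0.066 and 0.44, and the NSC lines between -0.059 and 0.051.

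The median of each tumour group was above 0 in each of the 10 windows. In the first window mGC1_GFAP lay at 0.41, mGC3_CNP at 0.35 and mGC2_NES at 0.21, with the lowest array, mGC2_NES replicate 3, at 0.13. In the seventh mGC1_GFAP lay at 0.27, mGC3_CNP at 0.13 and mGC2_NES at 0.081. The last window was nearly level over the groups, with 0.40 in mGC2_NES and 0.36 in each of the other groups. It was the highest window of mGC2_NES and of mGC3_CNP, and the first window was the highest of mGC1_GFAP. The eighth lay at 0.38 in mGC1_GFAP, 0.28 in mGC2_NES and 0.27 in mGC3_CNP. The share of a window's probe sets called higher ran from 43.8% to 70.2%. On the other autosomes, 231 windows of the same kind had a median share called higher of 25.5%, with 8 of them at or above the lowest of chromosome 15, and 24 (10.4%) were above 0 in all 9 tumour arrays. The median difference of 7 of those windows reached that of the lowest chromosome 15 window, and the highest, on chromosome 10, lay at 0.27.

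Finer windows were less even. With 20 windows, 173 of 180 medians were above 0 and 18 of the 20 windows were above 0 in every tumour array. The window from Txn2 to Galr3 was above 0 in 3 of 9 arrays (-0.12 to 0.085), and 8 of its 23 probe sets were called lower and 6 higher. The window from Ghr to Rai14 was above 0 in 8 of 9, with -0.062 in mGC2_NES replicate 3. Its median difference was 0.25, with 11 of its 24 probe sets called higher and 5 lower. The highest ran from Letmd1 to Mfsd5, at 0.56 (0.42 to 0.66), with 20 of its 24 probe sets called higher and none called lower. Over all 21780 probe sets limma called 17.6% higher and 19.2% lower. Among those of the other autosomes above the threshold it called 25.3% higher and 27.8% lower.

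A gene with the middle difference of its window shows the shift on the scale of single members. Prkaa1, in the first window, read 11.17, 11.26 and 11.25 in the NSC cultures and between 11.35 and 11.79 in the tumour cultures, with a median of 11.53. The groups did not overlap, and the difference was 0.32 ± 0.08 (SE; adjusted p = 0.0056, limma). Atp5g2, in the last window, read 13.02, 13.05 and 13.07 in NSC and between 13.24 and 13.47 in tumours, with a median of 13.41, again without overlap (0.35 ± 0.05, adjusted p = 2.9e-04, limma). Cenpm, in the lowest window, read 11.57, 11.64 and 11.68 in NSC and between 11.44 and 12.16 in tumours, with a median of 11.81. Its groups overlapped, and its difference of 0.20 ± 0.10 was not called (adjusted p = 0.14, limma). The other genes taken in this way were Tatdn1, Jrk, Rbx1 (a subunit of cullin ubiquitin ligases), Creld2 and Ccnt1 (the cyclin of the elongation factor P-TEFb), with differences of 0.24 to 0.37, and Lrp12 (0.23 ± 0.10) and Sh3bp1 (0.19 ± 0.17). They were picked by their difference, which is given as a description.

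Of the genes of growth and lineage, Rad21, Myc, Pdgfb and Sox10 lay above the median member difference of 0.27. Slc1a3, given further below, lay under it. Rad21, a subunit of the cohesin ring that holds sister chromatids, read 12.25, 12.18 and 12.31 in NSC and between 12.64 and 12.82 in tumours, with a median of 12.78, and rose by 0.52 ± 0.05. Myc read 12.20, 12.17 and 12.05 in NSC and between 12.57 and 12.86 in tumours, with a median of 12.71, and rose by 0.60 ± 0.07. Neither gene's groups overlapped. Pdgfb read 8.01, 7.88 and 7.56 in NSC and between 8.61 and 9.01 in tumours, with a median of 8.77, and rose by 0.99 ± 0.10; the labels do not say whether its probes can also read the transcript of the injected virus. Sox10 read 8.03, 8.21 and 8.12 in NSC and between 12.57 and 12.68 in tumours, with a median of 12.63. At 4.51 ± 0.05 it was the largest fitted rise among the members, and its 9 tumour arrays lay close together. Cntn1, a neural adhesion protein (2.98 ± 0.11), and Tmem117 (2.96 ± 0.11) were also among the 5 largest. The other two, Plcxd3 and Csmd3, had NSC means of 6.46 and 7.03, below the background reading of 7.42, so their differences have no exact size or rank. They are members only through their tumour arrays, which read 8.91 to 10.32 and 9.34 to 10.26.

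The largest falls went against the chromosome. Lgals1, the lectin galectin-1, read 13.48, 13.45 and 13.25 in NSC and between 8.12 and 10.23 in tumours, with a median of 9.99, a difference of -3.78 ± 0.42. Slc1a3 read 12.05, 11.56 and 12.27 in NSC and between 6.81 and 11.23 in tumours, with a median of 8.73, a difference of -3.12 ± 0.56. Its tumour arrays were spread the most widely of the genes named here, from mGC2_NES replicate 1 to mGC1_GFAP replicate 1, and none reached an NSC array. Pde1b, a cyclic nucleotide phosphodiesterase, lay at -2.77 ± 0.14, Tst, the sulfur transferase rhodanese, at -2.54 ± 0.14 and Wnt7b, a Wnt ligand, at -2.44 ± 0.21. Lgals1 and Tst lie in the fifth window and Wnt7b in the seventh, with window medians of 0.19 and 0.18. Slc1a3 lies in the first window and Pde1b in the last, with higher window medians of 0.32 and 0.35. These rises and falls were picked among called members whose tumour and NSC arrays did not overlap, so neither property is a result here.

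Gene groups on the chromosome were taken by role, as a description beside the median of 0.27 over all members. Of 14 measured members with roles in chromatin, replication and division, 9 were called higher and none lower, with a median difference of 0.34. Over all probe sets limma called 17.6% higher and 19.2% lower. Besides Rad21, the 9 included Cbx7, a Polycomb protein (0.67), Troap (0.52), the acetyltransferase Ep300 (0.36), Nsmce2 (0.36) and Racgap1 (0.27). Translation and RNA polymerase genes stood lower: of 13 members, 3 were called higher, Eif3h (0.29), Tars (0.32) and Eif3e (0.19), and Eef1d was called lower (-0.16), with a median of 0.075. Rpl8 (0.11 ± 0.07), Pabpc1 (-0.030 ± 0.05) and Rpl30 (-0.033 ± 0.09) were among the 9 not called. Mitochondrial and metabolic genes had 5 of 11 members higher, among them the respiratory chain subunits Ndufa6 (0.38) and Ndufb9 (0.29), and 3 lower, Tst, Adsl (-0.53) and Mpst (-0.27), with a median of 0.28.

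Matrix, adhesion and cytoskeleton genes were divided, with 4 of 12 members higher and 2 lower and a median of 0.099, where 57.4% of all members and 17.6% of all probe sets were called higher and 9.45% and 19.2% lower. The higher ones were the hyaluronan synthase Has2 (1.94), the cadherins Cdh10 (1.56) and Cdh6 (0.45), and Ctnnd2 (0.67). The lower ones were Lgals1 and the matrix protein Matn2 (-0.40). Of 10 signalling and glial lineage members, 5 were higher, Sox10, the vitamin D receptor Vdr, Trib1 (1.36), Pdgfb and Myc, and 2 were lower, Slc1a3 and Wnt7b, with a median of 0.26. Vdr read 6.74 on average in NSC, below the background reading, and 9.48 in tumours, so it had to differ to be a member. These lists were chosen with earlier results of these data known and do not stand as independent evidence of a direction.

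Differences among the 3 tumour groups were not used to choose the chromosome and were tested. An F test over the groups in limma called 36 of the 476 members (7.56%) at an adjusted p under 0.05, beside 4.05% of all probe sets and 6.48% of those of the other autosomes above the threshold. By single autosome, the share ran from 2.51% to 9.35% outside chromosome 15, so the share on chromosome 15 lay within that range. At an unadjusted p under 0.05 the F test took 139 members (29.2%), a share that was not taken over all probe sets. Without that background, nothing about chromosome 15 is read from it. The adjusted count fell in most fits with 1 array left out. It was 5, 20 and 13 without mGC1_GFAP replicates 1, 2 and 3, and 22, 10 and 11 without mGC2_NES replicates 1, 2 and 3. Without mGC3_CNP replicates 1, 2 and 3 it was 38, 19 and 24. The share over all probe sets was not taken in these fits. Whether the fall is particular to chromosome 15 was therefore not tested.

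Between pairs of tumour groups, 32 members were called higher and 23 lower in mGC1_GFAP than in mGC2_NES, where 6.13% of all probe sets were called. Against mGC3_CNP, 5 members were higher and none lower in mGC1_GFAP (0.487% of all probe sets called), and 1 was higher and 1 lower in mGC2_NES (0.459% called). The median difference over all members was 0.023, 0.044 and 0.012 for these pairs. Tmem117 read 10.98 ± 0.24 in mGC1_GFAP, 11.99 ± 0.14 in mGC2_NES and 11.15 ± 0.18 in mGC3_CNP (SD, n = 3 each; F test adjusted p = 0.012, limma), all far above the NSC mean of 8.41. Ago2, the slicing Argonaute of RNA interference, was called in both of its probe sets, and the one with the smaller p read 10.72 ± 0.13, 10.20 ± 0.07 and 10.10 ± 0.10 in the same order (F test adjusted p = 0.013, limma). Dscc1, which helps to load the replication clamp, read 8.20 ± 0.05, 7.42 ± 0.21 and 7.68 ± 0.06 (F test adjusted p = 0.012, limma). Its mGC2_NES mean lay at about the highest background reading of 7.42, so the differences of Dscc1 from that group have no exact size. Ago2 and Dscc1, named after their values were seen, were highest in mGC1_GFAP and Tmem117 in mGC2_NES.

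The tumour and NSC cultures also differed in marker genes of cell type. Of 6 oligodendrocyte precursor markers, Sox10, Pdgfra, C1ql1 and Cspg4 were called higher in tumours and none lower, and the mean level of the list was 12.65 to 12.80 in tumour arrays and 10.15 to 10.36 in NSC arrays. Of 6 neural stem cell markers, Egfr, Prom1, Nr2e1 and Nes were lower and none higher (9.26 to 9.80 against 11.33 to 11.51), with Egfr and Prom1 at or below the background reading of 7.42 in tumours. Of 6 astrocyte markers 5 were lower, Slc1a3 among them, and S100b was higher (7.16 to 7.76 against 9.58 to 9.77). The list means of microglia, endothelial, pericyte and fibroblast, and neuron markers did not exceed 8.06 in any array, and 14 of their 24 entries were at or below the background reading of 7.42 in every array; Cspg4, Col1a1, Dcx, Snap25, Cx3cr1, Flt1 and Syt1 were above it in tumours. The NSC cultures thus carried the markers of their label, though Prom1, at 7.57, lay close to the background reading. They also carried oligodendrocyte precursor and astrocyte markers, at list means of 10.15 to 10.36 and 9.58 to 9.77, so these lists do not single out that label. The part of these marker differences in the values of chromosome 15 was not tested. The relative median of members not called in either direction was 0.048. That value is small by construction, since members called on this same contrast were removed, and it does not measure that part.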

How the data were processed

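The deposited values are log2 signals; the submitters' processing notes name RMA and Affymetrix Expression Console as what the authors used. No version and no genome build behind the array design is known from the labels. The table holds 28270 probe sets, from 2.88 to 14.6. Of 21780 with exactly 1 gene symbol, 21689 matched a RefSeq gene table by Entrez gene ID and 20866 lay on an autosome; that table gave only chromosome and gene order. Probe sets without 1 symbol or without a match were left out of the members.

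limma 3.58.1 in R 4.3.3 was fitted to all 21780 probe sets on the deposited values, with 4 groups (3 tumour groups, NSC). The tumour against NSC contrast was the mean of the 3 tumour groups minus NSC, the F test compared the tumour groups in a fit of the 9 tumour arrays alone, and p-values were adjusted by Benjamini-Hochberg over all probe sets. Windows hold equal numbers of members in gene order. The script was tested on simulated data. The members, gene lists and tests were chosen with earlier results of these data known. Genes named with values were those nearest the median of each window, the 5 largest rises and 5 largest falls among called members with no overlap between arrays, list members, and Pdgfb, Sox10, Myc, Ptk2, Rad21 and Slc1a3; Ptk2 is not analysed here. Same-numbered cultures share no stated source, and the numbers are not treated as pairs. The number of arrays limits the precision, and RMA, which subtracts no probe-specific background, can understate the differences of dim probe sets. Alternatives covered the level rule, array centring, mouse line as a block, array weights, window number and leaving out each array.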

Additional observations from a re-analysis of the deposited data

Results flagged for a closer look

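Among the 9 tumour arrays, the relative median of an autosome was tested for 1 array far from the rest by Dixon's ratio, as were the 10 windows and the named members. Of 52 such groups, 9 had a far array, where chance gives about 1 in 20; 7 of the 9 were among the 19 autosomes and none among the windows. For chromosome 15 it was mGC3_CNP replicate 1, at 0.18 and below the other 8. The same array was far from the rest for chromosome 14, at -0.35, and for chromosome 7, at 0.16. mGC1_GFAP replicate 1 stood apart for chromosome 6, at 0.20, and for chromosome 17, at 0.17. mGC2_NES replicate 1 stood apart for chromosome 16, at 0.066, and mGC2_NES replicate 3 for chromosome 19, at 0.093. In single members, Lrp12 was low in mGC1_GFAP replicate 1 (level 10.32) and Atp5g2 was low in mGC3_CNP replicate 1 (level 13.24).

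Tmem117 differed among the tumour groups (F test of limma, adjusted p = 0.012).

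Probe sets that carry several gene symbols, all on chromosome 15, were not among the members. Their relative median against the same kind of probe sets of the other autosomes reached 0.19 in mGC3_CNP replicate 1, the highest tumour array, above the highest NSC array at 0.043.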

How the results depend on the processing

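The count of members called higher (273) was 244 to 277 with each array left out in turn, 256 or 263 with arrays centred on all probe sets or on the other autosomes, 271 with mouse line as a block, and 248 or 279 with the level rule on the NSC or tumour mean alone. With no level rule it was 309 of 831 probe sets, and the count called lower was 77 in place of 45. The relative median of 0.30 fell to 0.10 with no level rule and to 0.048 without called probe sets, by construction of that set; other settings gave 0.29 to 0.34, and each array left out 0.29 to 0.31. The mean over tumour arrays fell to 0.12 with no level rule and was 0.30 against the NSC culture of the same line. All 90 window medians were above 0, beside 87 of 90 with no level rule and 173 of 180 with 20 windows. The F test count (36) was 41 with an intensity trend, 43 with no level rule and 5 to 38 with each array left out. With replicate number as a block (replicate block) it was 28. Same-numbered deviations of different tumour groups correlated at 0.026 to 0.30, and differently numbered ones at -0.24 to 0.12. These values do not settle whether the numbers pair the cultures, and the labels name no shared source. Signal limits what can be seen in dim probe sets: the level threshold of 7.63 lies close to the highest background reading of 7.42.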

Other observations

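The array holds 11 probe sets with several gene symbols that all lie on chromosome 15 and that pass the level rule, and 292 of the same kind on the other autosomes. Their relative median was 0.14, -0.00033 and -0.034 in the mGC1_GFAP cultures, 0.16, -0.0014 and 0.10 in the mGC2_NES cultures and 0.19, 0.0040 and 0.096 in the mGC3_CNP cultures, in the order of replicates 1, 2 and 3. The NSC cultures gave -0.013 (C/tv-a), 0.043 (N/tv-a) and -0.041 (G/tv-a). The tumour mean was 0.074 ± 0.083 (SD, n = 9), and 5 of 9 tumour arrays lay above the highest NSC array. Taken alone, without setting the other autosomes against it, the chromosome 15 median was above 0 in 9 of 9 tumour arrays (0.029 to 0.18). It was also above 0 in the N/tv-a NSC (0.070). On the other autosomes the median was above 0 in every tumour array but mGC3_CNP replicate 1 (-0.040). This sign therefore sets apart neither tumour from NSC nor chromosome 15 from the rest.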
